A study of Mus musculus with 6 samples.

Results

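Genes for nucleolar ribosome biogenesis were followed in 3 mouse leukemia and lymphoma cell lines with and without inhibition of the kinase FGFR1. The members were a list of 34 genes, taken as the rows of the deposited table that carry their symbols. In all, 33 of the 34 had a row among the 17169 gene entries, each of the 33 passed the filter on low values, and Noc2l was not analysed here. Ribosomes are assembled in the nucleolus, where RNA polymerase I transcribes the ribosomal DNA and a large set of factors cuts, modifies and folds the precursor RNA into a small and a large subunit. Small nucleolar ribonucleoproteins (snoRNPs) guide the modification of that RNA. Many of these factors are known as targets of the transcription factor MYC, which raises ribosome production in growing blood cells and in lymphoid tumours, and the change of Myc is therefore set beside theirs.

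The lines are titled BBC, ZNF and BCRF8C. They were established from the marrow of Balb/c mice that had developed SCLL (stem cell leukemia/lymphoma), a disease driven by fusion kinases that hold the kinase end of FGFR1. Cultures received BGJ398 (infigratinib, which blocks FGFR kinases) or DMSO, its solvent, for 24 h, and 1 library of total RNA was sequenced for each line and agent. The doses were 30, 3 and 1.5 nM, for BBC, ZNF and BCRF8C if they follow the order in which the protocol lists the lines, so that dose and line cannot be told apart. The labels name no control line without a fusion, no inhibitor-resistant line and no repeat culture, and each line is a single tumour-derived model. Of 4 blood markers, all 4 were at 1 FPKM or more in both BBC and both ZNF libraries, and 3 in both BCRF8C libraries. Ptprc was at 39.5 FPKM or more in all 6 libraries. In BCRF8C with DMSO and BGJ398, Laptm5 was at 146 and 50.4 FPKM, Coro1a at 1.38 and 2.85, and Cd48 at 0 in both. With DMSO, Coro1a was at 286 FPKM in BBC and 226 in ZNF. All 8 B lineage markers were at 1 FPKM or more in both BBC libraries, all 5 T lineage markers with a row in both ZNF libraries, and 0 B lineage and 2 T lineage markers (Lck and Thy1) in the BCRF8C library with DMSO. The labels name no lineage and no fusion partner.

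The values are FPKM (fragments scaled by transcript length and by the fragments mapped in the library), so levels can be compared between genes, and the depth behind them is unknown. The 3 libraries with BGJ398 stood apart from the 3 with DMSO in their whole range of values. Over the 14232 genes tested (mean over the 6 libraries of 1 FPKM or more) the median log2 ratio of BGJ398 to DMSO was -0.91 in BBC, -0.37 in ZNF and -0.76 in BCRF8C. Genes with at least 10 FPKM in each DMSO library (5245 of those tested) had lower medians of -1.59, -0.77 and -1.60. This set was chosen on the DMSO libraries alone, and such a choice by itself favours lower ratios. Of 12 genes used by every cell, 7 were called lower, among them Gapdh. The results are therefore given as deposited and, for the genes described most closely, also with the trend of the ratio on expression level removed within each line, a scale on which the median of all genes tested is 0.02 in BBC, -0.01 in ZNF and 0.02 in BCRF8C. Log2 ratios were taken after adding 1 to each FPKM, which makes the change of low genes look smaller.

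The promoters of the genes give a view that does not rest on the libraries. RefSeq promoter windows (build GRCm38.p6, 250 bases before to 50 after the start) were matched by symbol for 28 of the 33 genes. The E-box CACGTG, the sequence that MYC and its partner MAX bind best and that reads the same on both strands, was present in the windows of 6 of the 28 genes (21.4%), against 2187 of 27025 genes in the whole table (8.09%). The looser form CANNTG, of which CACGTG is 1 case, was present for 17 of 28 (60.7%), against 75.0% of all genes. The 6 genes are shown with the E-box in capitals, since they are the members with this E-box next to the start, and the letters run 5′ to 3′ on the strand of the gene.
Nop2 (chr6:125131786-125131865, plus strand): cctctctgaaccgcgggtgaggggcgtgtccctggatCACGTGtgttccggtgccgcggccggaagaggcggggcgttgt
Utp20 (chr10:88826765-88826789, minus strand): cggcactaactaCACGTGaggaaaa
Wdr43 (chr17:71616220-71616249, plus strand): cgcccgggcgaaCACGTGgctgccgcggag
Pes1 (chr11:3963965-3963994, plus strand): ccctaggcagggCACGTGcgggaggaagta
Tsr1 (chr11:74898092-74898121, plus strand): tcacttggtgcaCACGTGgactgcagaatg
Imp4 (chr1:34439671-34439750, plus strand): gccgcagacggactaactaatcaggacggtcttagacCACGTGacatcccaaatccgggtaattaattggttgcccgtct
The centre of the E-box lay 57 bases upstream of the annotated start in Nop2 and 118 bases upstream in Imp4. For Nop2 and Imp4 the first bases after that start were not found in a GENCODE vM21 transcript of the gene, so the distance rests on the RefSeq start alone. In the other 4, whose starts had such a match, it lay downstream, by 5 bases in Pes1, 20 in Wdr43, 27 in Tsr1 and 40 in Utp20. The 6 genes had a median log2 ratio of -1.88 across the lines as deposited (range -2.66 to -1.69), and the 22 genes without the sequence in their window had the same median of -1.88 (range -2.50 to -1.34). A match of letters is a description of the window, and binding of MYC was not measured.

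All 33 genes were lower with BGJ398 in all 3 lines, as were 55.7% of all genes tested. Across the lines, 31 of the 33 fell in limma with the line as a block (adjusted p under 0.05), 0 rose, and the nucleolar genes Npm1 and Rrp1b did not pass. The same test called 30.2% of all genes tested lower. It called 63% lower among the genes with at least 10 FPKM in each DMSO library, where 29 of 31 members passed. That set was chosen by DMSO level alone, which favours lower ratios, so its share here and below is a description. The median log2 ratio of the members was -1.91, with single genes from -2.68 (Bop1) to -1.34 (Rrp1b), against -0.69 over all genes tested. FPKM are scaled to the fragments mapped in each library, so they show shares and not amounts of RNA per cell. Fewer cells with these transcripts and less of them in each cell cannot be told apart in such bulk libraries. The FPKM of all genes tested also summed to less with BGJ398 (2.10e+06 against 8.27e+05 in BBC, 4.52e+06 against 1.51e+06 in ZNF). In BCRF8C the sums were 1.76e+06 and 6.04e+05. The highest entry in ZNF with DMSO was at 1.74e+06. The part of these sums in the result was not tested.

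The calls depended on the scaling and on BBC. After removal of the expression trend, 0 members passed in limma (12 of 33 at an unadjusted p under 0.05), 0 passed after quantile normalization (19 at an unadjusted p under 0.05), 0 after median-of-ratios scaling (31 at an unadjusted p under 0.05) and 0 without BBC (5 at an unadjusted p under 0.05), while 10 passed without BCRF8C. The direction of the mean over the lines was the same for every member in each of these, and the median of the members was -1.11 under median-of-ratios scaling, -0.75 with the trend removed and -1.61 without BBC. Lineage markers moved with the agent as well, in both directions. The summed level of the 8 B lineage markers was lower with BGJ398 in BBC (1448 against 747 FPKM) and higher in ZNF (3.09 against 9.54) and BCRF8C (0.654 against 9.10). The markers at 1 FPKM or more numbered 8 in both BBC libraries, 1 with DMSO and 4 with BGJ398 in ZNF, and 0 and 3 in BCRF8C, where Ebf1 was at 0.454 and 6.48 FPKM. The 5 T lineage markers summed to less with BGJ398 in all 3 lines (71.3 against 45.7 in BBC, 793 against 485 in ZNF, 95.7 against 52.4 in BCRF8C). Single markers did not all follow these sums. In BCRF8C only Thy1 was lower (92.3 against 43.6 FPKM). Lck (3.12 against 5.79), Cd2 (0.168 against 1.79) and Cd3g (0.136 against 1.21) were higher there, and Cd3d was at 0 with both agents. In BBC Cd3d (0.338 against 1.84) and Cd3g (0.934 against 1.57) were higher, and Lck, Cd2 and Thy1 lower. The myeloid genes Mpo and Lyz2 summed to 5.97 and 5.18 FPKM in BBC, 0 and 0 in ZNF and 0.0977 and 3.52 in BCRF8C. The stromal genes Col1a1 and Col1a2 summed to at most 2.82 FPKM with DMSO and to 3.20 to 14.9 with BGJ398. Only 2 of 8 myeloid, 2 of 8 stromal and 2 of 5 erythroid markers had a row. The erythroid genes Hbb-b1 and Alas2 summed to 21.7 and 10.2 FPKM in BBC and to 0 in ZNF and BCRF8C. All these sums are as deposited, and those that were higher with BGJ398 were at 3.09 FPKM or less with DMSO. The part of these markers in the result was not tested.

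**Figure D1:**
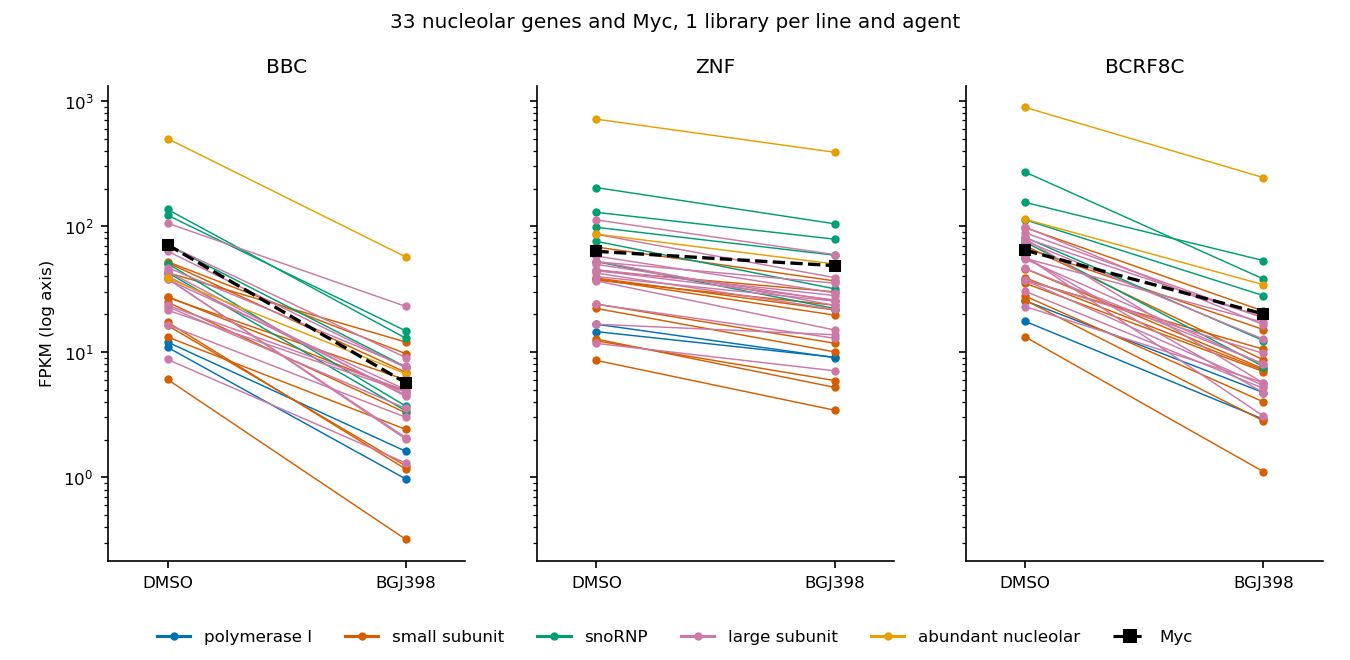
FPKM of the 33 nucleolar genes (coloured by role) and Myc (black, dashed) in DMSO and with BGJ398 in each line, 1 library per point, on a log axis. The slopes are steep in BBC and BCRF8C and shallow in ZNF, where the genes were a median of 1.87-fold lower.

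The size of the change differed by line. In BBC the members were a median of 7.60-fold lower with BGJ398 (3.57 to 19.1), and all 33 were at least 2-fold lower on the log2(FPKM + 1) scale, against 46.5% of all genes tested. BCRF8C was close behind, with a median of 5.93-fold (2.91 to 18.8) and again all 33 at least 2-fold lower, against 42.4%. In ZNF the median was 1.87-fold (1.21 to 2.49), and 8 of 33 were at least 2-fold lower, against 14.2%. These shares were not counted among the genes with at least 10 FPKM in each DMSO library. The median log2 ratios of those genes were -1.59 (BBC), -1.60 (BCRF8C) and -0.77 (ZNF), against -2.60, -2.36 and -0.88 for the members. The shares of all genes tested are thus not those of genes at a like level. A single library per line and agent allowed no test within a line, and the differences between the lines were not tested.

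Once the trend was removed, the median of the members stayed below that of all genes tested in BBC and BCRF8C and lay near it in ZNF. Their median ratios on that scale were -1.34 in BBC (range -2.47 to -0.28), -0.92 in BCRF8C (-2.52 to 0.55) and -0.12 in ZNF (-0.73 to 0.39). Values below 0 were found for 33 of 33 members in BBC (49.1% of all genes tested), 30 of 33 in BCRF8C (49.3%) and 22 of 33 in ZNF (50.5%). Quantile normalization gave medians of -1.57, -1.13 and -0.22 in BBC, BCRF8C and ZNF. As deposited, ZNF had the highest ratio of the 3 lines for 33 of 33 members, as for 60.2% of all genes tested, and with the trend removed for 30 of 33, as for 35.5%. The full order, with BBC lowest and ZNF highest, was that of 24 of the 33 members and of 31.8% of all genes tested as deposited.

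**Figure D2:**
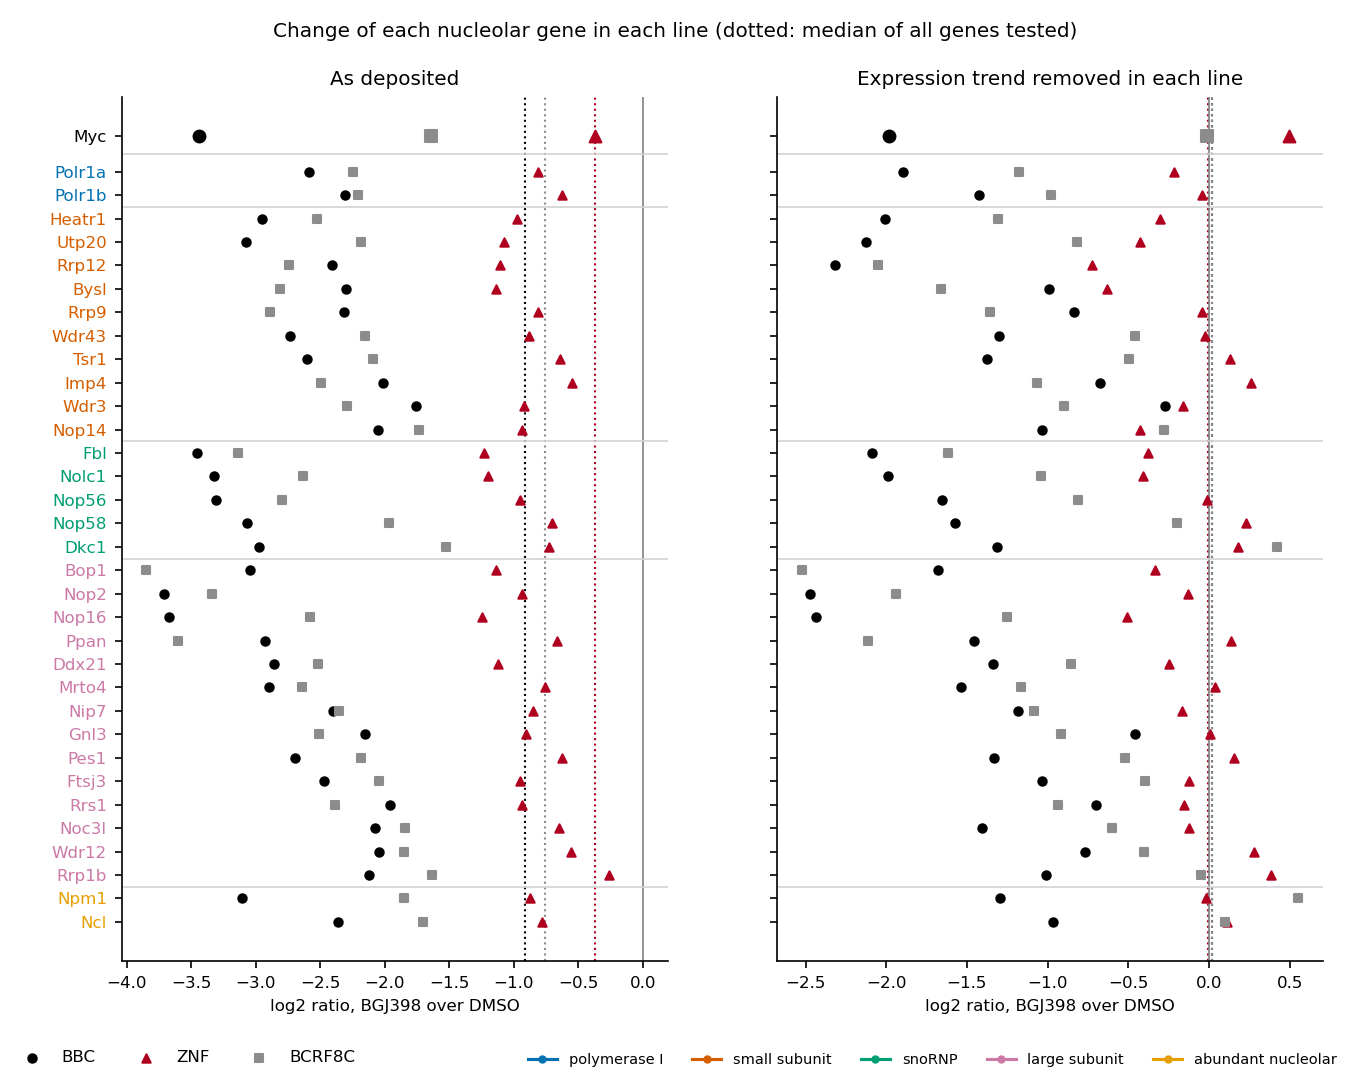
Log2 ratio of BGJ398 to DMSO for each nucleolar gene and Myc in BBC (circles), ZNF (triangles) and BCRF8C (squares), as deposited (left) and with the expression trend removed (right); gene names are coloured by role and dotted lines mark the median of all genes tested in each line. On the right the ZNF points lie around 0 while those of BBC reach -2.47.

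Myc (ENSMUSG00000022346, chromosome 15, 61816946 to 61821929 in NCBIM37, the build of all loci below) went from 71.3 to 5.66 FPKM (BBC), from 63.2 to 48.6 FPKM (ZNF) and from 64.4 to 20.01 FPKM (BCRF8C). It was thus at a similar level in the 3 DMSO libraries, and was 12.6-fold lower in BBC, 3.22-fold lower in BCRF8C and 1.30-fold lower in ZNF. Its mean log2 ratio over the lines was -1.82 ± 1.54 (SD, n = 3) and did not pass (adjusted p = 0.0552 in limma). Its ratios on the scale without the trend were -1.98 (BBC), 0.49 (ZNF) and -0.01 (BCRF8C). In the order of the lines Myc and the members were alike as deposited: BBC lowest, then BCRF8C by the median of the members, then ZNF. The medians of all genes tested had the same order (-0.91, -0.76 and -0.37), so the order is not particular to Myc and the members. In size Myc and the members were not alike, since only 3 of 33 members had a lower ratio than Myc in BBC, while 31 did in BCRF8C and 32 in ZNF. With the trend removed those numbers were 7, 30 and 33. Among all genes tested, counted from the lowest ratio as deposited, Myc stood at percentile 1.68 in BBC, 22.2 in BCRF8C and 49.7 in ZNF. The counts thus also depend on where Myc lies among all genes. With the trend removed its percentile was not computed. The difference of the log2 ratios, BBC minus ZNF, had a median of -1.86 for the members and was -3.07 for Myc. For BCRF8C minus ZNF these values were -1.45 and -1.27. For BBC minus BCRF8C they were -0.34 (below 0 for 24 members) and -1.80. Of the 12 genes of the MYC network, 2 were called lower, beside 30.2% of all genes tested: the partner gene Max (-1.35 ± 0.72, adjusted p = 0.0415 in limma) and the antagonist gene Mxd3 (-1.63 ± 0.35, adjusted p = 0.0348). Neither passed with the trend removed (limma adjusted p = 0.657 for Max and 0.244 for Mxd3).

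The loci are the spans listed in the table, and 12 of the 33 members share theirs with another entry, so that such a span appears to merge neighbouring genes and is not the extent of the member alone. The longest are those of Wdr3 (321576 bases, with Gdap2), Tsr1 (266378 bases, with Smg6 and Srr) and Bysl (106442 bases, with Ccnd3).

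**Figure D3:**
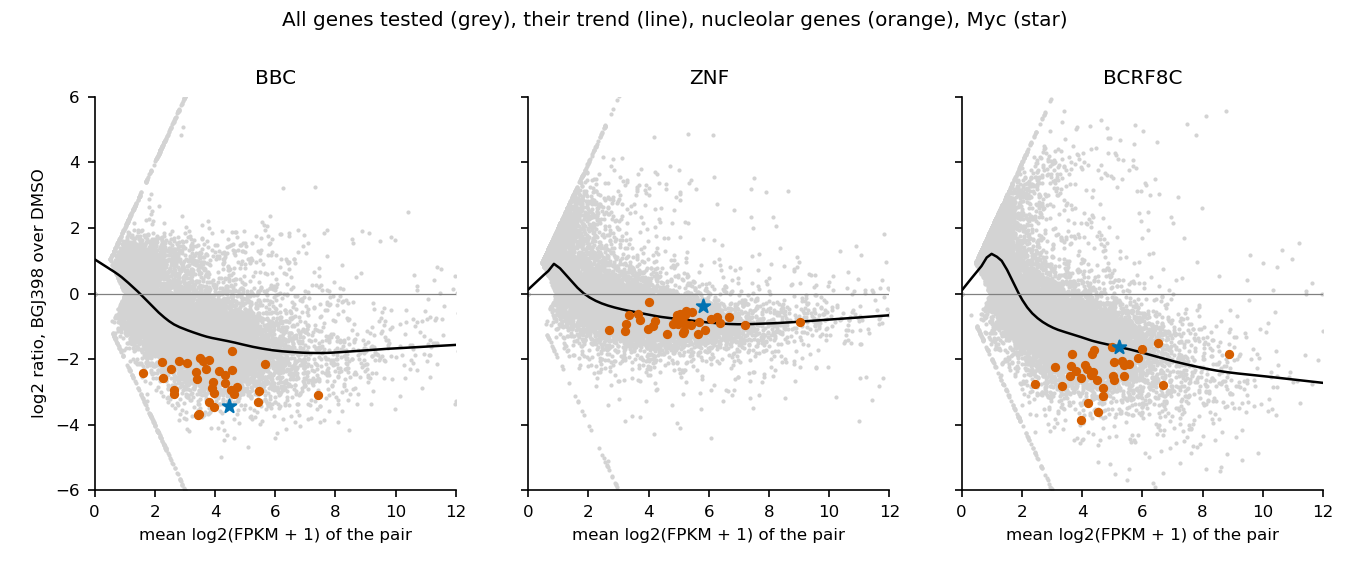
Log2 ratio of BGJ398 to DMSO against the mean log2(FPKM + 1) of the pair in each line, for all genes tested (grey; those beyond the axes are not drawn), with the trend that was removed (black line), the nucleolar genes (orange) and Myc (star). Nearly all nucleolar genes lie below the line in BBC and BCRF8C and close around it in ZNF.

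RNA polymerase I makes the precursor of the ribosomal RNAs, and both of its subunit genes on the list fell. Here and below, counts by role group stand beside the shares that limma called lower. These were 30.2% of all genes tested and 63% of the well expressed ones (at least 10 FPKM in each DMSO library). Polr1a (ENSMUSG00000049553, chromosome 6, 71859047 to 71929350), which encodes the largest subunit, went from 10.9 to 0.970 FPKM (BBC), from 16.6 to 9.0003 FPKM (ZNF) and from 17.5 to 2.90 FPKM (BCRF8C) (-1.88 ± 0.94, adjusted p = 0.0348 in limma). Polr1b (ENSMUSG00000027395, chromosome 2, 128926731 to 128952330), for the second largest, went from 11.96 to 1.61 FPKM (BBC), from 14.5 to 9.05 FPKM (ZNF) and from 25.5 to 4.74 FPKM (BCRF8C) (-1.71 ± 0.95, adjusted p = 0.0350). The DMSO and BGJ398 libraries did not overlap for either gene. The share of all genes tested without such overlap was not counted, so nothing is read from it here or below. Both were low beside the other members, and the ratio of Polr1a to Polr1b levels lay between 0.602 and 1.15 over the 6 libraries. Without the trend the log2 ratios of Polr1a were -1.90 (BBC), -0.22 (ZNF) and -1.18 (BCRF8C), and those of Polr1b were -1.43 (BBC), -0.04 (ZNF) and -0.98 (BCRF8C).

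The genes of the small subunit factors fell in 10 of 10 cases, beside 30.2% of all genes tested and 63% of the well expressed ones. Their median log2 ratio was -1.97. Heatr1 and Wdr43 encode early factors of the small subunit processome, the particle that folds and cuts the precursor. Heatr1 (ENSMUSG00000050244, chromosome 13, 12487665 to 12530944) went from 16.2 to 1.23 FPKM (BBC), from 24.0 to 11.7 FPKM (ZNF) and from 27.8 to 3.99 FPKM (BCRF8C). Wdr43 (ENSMUSG00000041057, chromosome 17, 71965555 to 72008371) went from 51.4 to 6.85 FPKM (BBC), from 68.4 to 36.8 FPKM (ZNF) and from 97.5 to 21.1 FPKM (BCRF8C). Utp20 (ENSMUSG00000004356, chromosome 10, 88209352 to 88289559), whose product is a very large scaffold protein of the processome, went from 17.2 to 1.16 FPKM (BBC), from 22.2 to 10.0 FPKM (ZNF) and from 35.2 to 6.96 FPKM (BCRF8C). For all 3 genes each library with BGJ398 was below every DMSO library (share of all genes not counted), and BBC with BGJ398 was the lowest. The mean log2 ratios were -2.15 ± 1.04 for Heatr1, -1.92 ± 0.95 for Wdr43 and -2.11 ± 1.001 for Utp20, with adjusted p = 0.0348, 0.0349 and 0.0348 in limma.

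Rrp12 (ENSMUSG00000035049, chromosome 19, 41937342 to 41970643), which encodes a repeat protein needed for maturation and export of both subunits, was the lowest member in all 6 libraries. It went from 6.02 to 0.320 FPKM (BBC), from 8.54 to 3.43 FPKM (ZNF) and from 13.1 to 1.11 FPKM (BCRF8C). Its fold was among the largest, 18.8 in BBC and 11.8 in BCRF8C, although on the log2(FPKM + 1) scale its mean ratio was -2.09 ± 0.86. It also had the lowest ZNF ratio with the trend removed, with values of -2.32 (BBC), -0.73 (ZNF) and -2.05 (BCRF8C). Bysl (ENSMUSG00000023988, chromosome 17, 47642000 to 47748441), for bystin, a late factor of the small subunit, with a listed span that it shares with Ccnd3, went from 27.6 to 4.81 FPKM (BBC), from 12.6 to 5.21 FPKM (ZNF) and from 25.8 to 2.82 FPKM (BCRF8C), and with the trend removed had -0.99 (BBC), -0.64 (ZNF) and -1.66 (BCRF8C). Rrp12 and Bysl were thus below the trend in ZNF as well, at -0.73 and -0.64.

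Rrp9, which encodes a protein specific to the U3 snoRNP, was 5.40, 1.80 and 8.13-fold lower in BBC, ZNF and BCRF8C, and Imp4, for a partner of that particle, was 4.54, 1.48 and 6.28-fold lower. Tsr1, for a GTPase-like factor of late small subunit maturation, was 7.60, 1.59 and 4.47-fold lower in the same order. Nop14, an early assembly factor gene, was 5.45, 2.07 and 3.55-fold lower and Wdr3, for a processome subunit, was 3.57, 1.94 and 5.45-fold lower. Their mean log2 ratios were -2.01 ± 1.07 for Rrp9, -1.69 ± 1.02 for Imp4, -1.78 ± 1.01 for Tsr1, -1.57 ± 0.57 for Nop14 and -1.66 ± 0.69 for Wdr3. Limma gave adjusted p values between 0.0348 and 0.0376 for these 5 genes. BBC was not the line with the largest change for Rrp9, Imp4 and Wdr3, whose ratios were lower in BCRF8C. Wdr3 had, without the trend, the value nearest to 0 of all members in BBC (-0.28) and -0.90 in BCRF8C, while Imp4 had -0.68 (BBC), 0.26 (ZNF) and -1.06 (BCRF8C).

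The 5 snoRNP genes fell in 5 of 5 cases, beside 30.2% of all genes tested and 63% of the well expressed ones. They had the lowest median of the role groups as deposited (-2.35). On other scales the 2 polymerase I genes were lower. Their median was -0.96 against -0.83 for the snoRNP genes with the trend removed, and -1.41 against -1.04 after quantile normalization. Fbl (ENSMUSG00000046865, chromosome 7, 28954765 to 28964288) encodes fibrillarin, the methyltransferase of the box C/D particles, and went from 50.5 to 3.70 FPKM (BBC), from 75.9 to 31.8 FPKM (ZNF) and from 75.0 to 7.63 FPKM (BCRF8C) (-2.61 ± 1.203, adjusted p = 0.0348 in limma). Its partner genes encode the core proteins of the same particles. Nop56 (ENSMUSG00000027405, chromosome 2, 130100166 to 130110283) went from 136 to 12.8 FPKM (BBC), from 203 to 105 FPKM (ZNF) and from 270.3 to 38.0 FPKM (BCRF8C). Nop58 (ENSMUSG00000026020, chromosome 1, 59741853 to 59768968) went from 70.8 to 7.59 FPKM (BBC), from 129 to 79.0 FPKM (ZNF) and from 113 to 28.05 FPKM (BCRF8C). The 3 proteins are present in each box C/D particle, while the ratios between their transcript levels differed between the agents, with no replicate for any of these ratios. The Nop58 to Fbl ratio was 1.40, 1.70 and 1.50 in the DMSO libraries of BBC, ZNF and BCRF8C, and 2.05, 2.49 and 3.67 with BGJ398, so that it was higher with BGJ398 in each line. The Nop56 to Fbl ratio was likewise 2.70, 2.68 and 3.60 with DMSO and 3.47, 3.30 and 4.98 with BGJ398.

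Dkc1 (ENSMUSG00000031403, chromosome X, 72341193 to 72376355), for dyskerin, the pseudouridine synthase of the box H/ACA particles, went from 123 to 14.7 FPKM (BBC), from 98.2 to 58.9 FPKM (ZNF) and from 155 to 53.4 FPKM (BCRF8C). With -1.74 ± 1.14 it had the highest adjusted p of the members that passed (0.0455 in limma). Without the trend it was below 0 in BBC alone, at -1.32 (BBC), 0.18 (ZNF) and 0.42 (BCRF8C). Nolc1 (ENSMUSG00000015176, chromosome 19, 46150353 to 46160018), for a chaperone of both classes of snoRNP, went from 42.8 to 3.39 FPKM (BBC), from 52.3 to 22.1 FPKM (ZNF) and from 81.6 to 12.3 FPKM (BCRF8C) and stayed lower with the trend removed, at -1.99 (BBC), -0.41 (ZNF) and -1.04 (BCRF8C). Nop56, Nop58 and Dkc1 share their listed locus with entries of small nucleolar RNAs that lie in their introns, and Nop56 and Dkc1 also with a neighbouring gene (Idh3b and Mpp1). In all, 7 members share a listed span with a small nucleolar RNA, and no source used here says whether the counting used strand.

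The genes of the large subunit factors fell in 13 of 14 cases, beside 30.2% of all genes tested and 63% of the well expressed ones. They had a median of -1.86 and the widest spread of the role groups, from -2.68 to -1.34. Pes1, Bop1 and Wdr12 encode the PeBoW complex, which is needed to process the RNA of the large subunit. Pes1 (ENSMUSG00000020430, chromosome 11, 3837544 to 3880007) went from 37.8 to 4.99 FPKM (BBC), from 39.8 to 25.4 FPKM (ZNF) and from 88.7 to 18.7 FPKM (BCRF8C). Bop1 (ENSMUSG00000022557, chromosome 15, 76210691 to 76307699) went from 43.7 to 4.41 FPKM (BBC), from 52.7 to 23.4 FPKM (ZNF) and from 57.7 to 3.08 FPKM (BCRF8C). Wdr12 (ENSMUSG00000026019, chromosome 1, 60133712 to 60207876) went from 23.5 to 4.92 FPKM (BBC), from 52.2 to 35.3 FPKM (ZNF) and from 37.5 to 9.71 FPKM (BCRF8C). Bop1 had the lowest mean ratio of all members (-2.68 ± 1.39) and Wdr12 the second highest (-1.48 ± 0.81), and all 3 passed in limma (adjusted p = 0.0348, 0.0364 and 0.0386 for Bop1, Pes1 and Wdr12).

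The ratios between the 3 PeBoW transcripts also differed between the agents. The Bop1 to Wdr12 ratio of levels was 1.86 (BBC), 1.01 (ZNF) and 1.54 (BCRF8C) with DMSO against 0.897, 0.665 and 0.317 with BGJ398, lower with the inhibitor in each line. The Pes1 to Bop1 ratio was 0.864, 0.754 and 1.54 with DMSO against 1.13, 1.08 and 6.08 with BGJ398, higher in each. The listed loci of Bop1 and Wdr12 hold another entry each (Heatr7a and Carf), and how reads were divided between overlapping entries is not stated.

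Nop2 (ENSMUSG00000038279, chromosome 6, 125081901 to 125094771), for a methyltransferase of large subunit rRNA that marks growing cells, went from 38.5 to 2.02 FPKM (BBC), from 49.8 to 25.6 FPKM (ZNF) and from 56.8 to 4.73 FPKM (BCRF8C). Nop16 (ENSMUSG00000025869, chromosome 13, 54685546 to 54691451), for a nucleolar protein of the large subunit precursor, went from 38.2 to 2.07 FPKM (BBC), from 36.8 to 14.9 FPKM (ZNF) and from 37.2 to 5.38 FPKM (BCRF8C). Ppan (ENSMUSG00000004100, chromosome 9, 20692619 to 20696622), for an early large subunit factor, went from 63.3 to 7.45 FPKM (BBC), from 45.2 to 28.1 FPKM (ZNF) and from 79.5 to 5.63 FPKM (BCRF8C). In BBC Nop2 and Nop16 had the lowest ratios of all members (-3.71 and -3.67), below that of Myc, while Ppan was second only to Bop1 in BCRF8C at -3.60. Ppan had the largest SD over the lines among the members (-2.40 ± 1.54, n = 3), with a ratio of -0.67 in ZNF. Without the trend Nop2 was at -2.47 (BBC), -0.13 (ZNF) and -1.94 (BCRF8C), and Nop16 was at -2.43 (BBC), -0.51 (ZNF) and -1.25 (BCRF8C).

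Ddx21, which encodes an RNA helicase that acts at ribosomal DNA and on snoRNAs, was 7.93, 2.21 and 6.01-fold lower in BBC, ZNF and BCRF8C. Mrto4, for a placeholder of the ribosomal stalk protein, was 8.86, 1.71 and 6.90-fold lower. Gnl3, for the GTPase nucleostemin, known from stem and tumour cells, was 4.61, 1.89 and 6.07-fold lower and, at 106, 112 and 76.4 FPKM in the DMSO libraries, the most abundant of the large subunit group in BBC and ZNF. Nip7 was 6.47, 1.87 and 5.93-fold lower, Rrs1 was 4.50, 1.95 and 5.75-fold lower and Noc3l was 6.68, 1.65 and 4.04-fold lower, all 3 for assembly factors of the large subunit precursor. Ftsj3, for a methyltransferase of the precursor RNA, was 6.14, 1.96 and 4.30-fold lower. These 7 genes fell across the lines, with mean log2 ratios from -2.17 ± 0.92 (Ddx21) to -1.52 ± 0.76 (Noc3l) and an adjusted p between 0.0348 and 0.0350 in limma.

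Rrp1b (ENSMUSG00000058392, chromosome 17, 32173045 to 32199810), for a nucleolar protein that binds chromatin and large subunit precursors, had the smallest change of the members. It went from 16.4 to 3.01 FPKM (BBC), from 16.6 to 13.7 FPKM (ZNF) and from 55.5 to 17.2 FPKM (BCRF8C), and at -1.34 ± 0.96 it did not pass (adjusted p = 0.0514 in limma). In ZNF its ratio of -0.26 was the only one of the members above that of Myc. Its level in the BCRF8C library with BGJ398 (17.2 FPKM) lay above the DMSO levels of BBC and ZNF (16.4 and 16.6 FPKM), so the groups overlapped.

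Nucleolin and nucleophosmin are abundant nucleolar proteins that also act as chaperones of histones and RNA. Npm1 (ENSMUSG00000057113, chromosome 11, 33052287 to 33063206), for nucleophosmin, was the most abundant member in every library and went from 500.0 to 57.0 FPKM (BBC), from 714 to 389 FPKM (ZNF) and from 886 to 244 FPKM (BCRF8C). At -1.95 ± 1.12 it did not pass (adjusted p = 0.0540 in limma). Each of its libraries with BGJ398 was below each DMSO library, and the share of all genes with this pattern was not counted. Ncl (ENSMUSG00000026234, chromosome 1, 88241294 to 88256030), for nucleolin, went from 38.5 to 6.69 FPKM (BBC), from 86.7 to 50.1 FPKM (ZNF) and from 114 to 34.3 FPKM (BCRF8C) and fell (-1.61 ± 0.80, adjusted p = 0.0372). The levels of Ncl overlapped between the agents, since ZNF with BGJ398 was above BBC with DMSO. On the scale without the trend Npm1 was at -1.29 (BBC), -0.02 (ZNF) and 0.55 (BCRF8C), and Ncl at -0.97 (BBC), 0.11 (ZNF) and 0.10 (BCRF8C). Both were thus below the trend in BBC and above it in BCRF8C. Npm1 exceeded Ncl 13.0-fold, 8.23-fold and 7.79-fold in the DMSO libraries of BBC, ZNF and BCRF8C and 8.53-fold, 7.77-fold and 7.13-fold with BGJ398.

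The levels in DMSO also differed by line. The median of the 33 members was 38.5 FPKM in BBC, 44.3 in ZNF and 56.8 in BCRF8C, although the median of all genes tested was 9.95, 8.36 and 9.03 FPKM. The DMSO library of BCRF8C was the highest of the 3 for 26 of 33 members, against 34.5% of all genes tested. With BGJ398 the medians of the members were 4.78, 23.5 and 8.03 FPKM, so that ZNF was then the highest. Single libraries give no spread for these levels, and no difference in DMSO was tested.

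A further 117 genes of ribosome biogenesis with a row, in 5 lists of polymerase I, small subunit, large subunit, snoRNP and exosome genes, went the same way. In limma 100 of 117 fell across the lines, 0 rose and 17 did not pass, with a median log2 ratio of -1.64. The share called lower was 30.2% over all genes tested and 63% over those with at least 10 FPKM in each DMSO library, among which 92 of 103 of these genes were called. As deposited 115 of 117 were lower in all 3 lines, as were 55.7% of all genes tested. Without the trend 106 were below 0 in BBC (49.1% of all genes tested), 92 in BCRF8C (49.3%) and 82 in ZNF (50.5%), and limma called 0 of them (33 had an unadjusted p under 0.05). Their medians on that scale were -0.81, -0.48 and -0.13 in BBC, BCRF8C and ZNF, nearer to 0 than those of the members in BBC and BCRF8C and level with them in ZNF. As for the members, the deposited calls depended on BBC, with 0 of 117 passed without it and 25 without BCRF8C.

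The counts by list stand beside the same shares of 30.2% of all genes tested and 63% of the well expressed ones, and nothing is read from how far a list lies above them. Of 12 further genes of polymerase I and its transcription factors 10 fell. Polr1d and Polr1c, for subunits shared with polymerase III, had mean log2 ratios of -2.27 ± 0.65 and -1.91 ± 0.58, and Ttf1, for the termination factor, had the smallest change (-0.58 ± 0.26, adjusted p = 0.132 in limma, not passed). Of 41 small subunit genes 39 fell, led by Pwp2 (-2.52 ± 1.27) and Ngdn (-2.32 ± 0.91), with Esf1 at the other end (-0.72 ± 0.36, adjusted p = 0.105, not passed). Of 43 large subunit genes 33 fell, led by Wdr74 (-2.48 ± 1.18) and the helicase gene Ddx56 (-2.20 ± 0.96), with Las1l at the other end (-0.70 ± 0.41, adjusted p = 0.107, not passed). Of 8 snoRNP genes 6 fell. Nhp2, for a box H/ACA core protein, went from 134 to 9.10 FPKM (BBC), from 125 to 54.1 FPKM (ZNF) and from 182 to 13.1 FPKM (BCRF8C) and had the lowest ratio of the 117 (-2.87 ± 1.46), followed by Ruvbl2 (-2.75 ± 1.19), for an assembly ATPase, while Naf1 had the smallest change of the 8 (-1.06 ± 0.50, adjusted p = 0.0444).

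Of 13 genes of the exosome, the complex that trims the precursor RNAs, 12 fell, led by Exosc5 (-2.71 ± 1.31) and Exosc7 (-2.27 ± 1.26), with Exosc9 at the other end (-1.02 ± 0.56, adjusted p = 0.0651, not passed, in limma). No gene of the 5 lists was higher with BGJ398 in 2 or more lines. The 2 that were higher in 1 line, named after their values were seen, were Tex10, for a partner of a large subunit release complex, and Gar1, for a box H/ACA core protein. Tex10 went from 24.1 to 6.36 FPKM (BBC), from 38.6 to 20.5 FPKM (ZNF) and from 44.0 to 57.5 FPKM (BCRF8C). Gar1 went from 45.6 to 6.46 FPKM (BBC), from 20.6 to 21.0 FPKM (ZNF) and from 87.0 to 13.5 FPKM (BCRF8C), so that in ZNF it was level while its partner Nhp2 was lower.

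**Figure D4:**
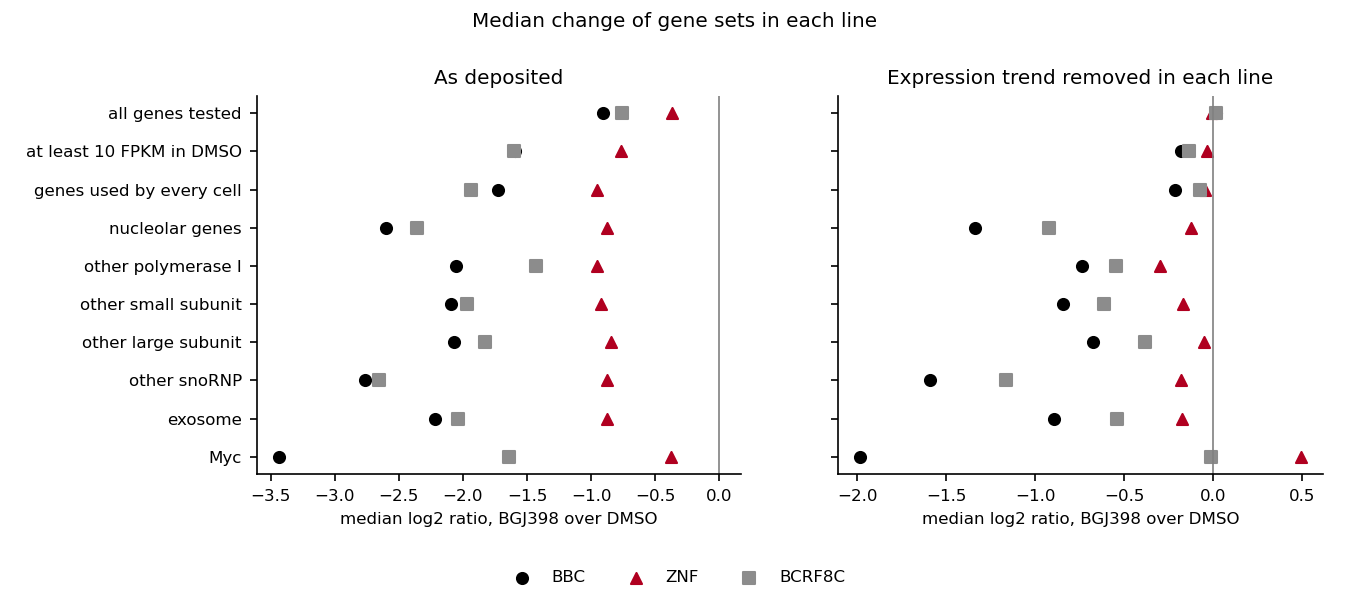
Median log2 ratio of BGJ398 to DMSO in each line for all genes tested, well expressed genes, genes used by every cell, the 33 nucleolar genes, the 5 lists of other ribosome biogenesis genes and Myc, as deposited (left) and with the expression trend removed (right). On the right the nucleolar genes are at -1.34, -0.12 and -0.92 in BBC, ZNF and BCRF8C, and the well expressed genes are at -0.18, -0.04 and -0.14.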

How the data were processed

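The authors deposited 1 table of FPKM values with 17169 entries and 6 columns, each matched by name to the title of 1 sample (0 columns unmapped). Reads had been handled with TopHat2 2.0.12 and bcl2fastq on the build NCBIM37, per the submitters' processing notes. The program behind the FPKM values, its annotation and filters are not named by any source used here. No steps of whole reads were found among low values in any library, so depth is unknown and no counting interval was computed. Starts were raised by 1, since end minus start equalled the GENCODE vM21 gene length for 6377 of 15944 matched entries. Where a symbol had several entries, that of the highest mean stood for it. In BBC 14 entries were at 0 with both agents, against 3185 in ZNF and 1640 in BCRF8C. Entries at 0 in 1 library of the pair were found in BBC alone, 732 with DMSO only and 318 with BGJ398 only. In ZNF and BCRF8C there were 0 of either kind, and the reason for this difference was not tested.

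Genes whose mean over the libraries reached 1 FPKM were tested on log2(FPKM + 1) with limma 3.58.1 in R 4.3.3 (line as block, intensity trend, 2 residual degrees of freedom; two-sided; Benjamini-Hochberg over all 14232 genes, called under 0.05), tested on simulated data. Both libraries of a pair come from 1 cell line, which pairs them: deviations from the agent means correlated at 0.454, 0.541 and 0.549 within BBC, ZNF and BCRF8C. P-values rest on the spread between lines, which also differ in dose, but not on that of the gene alone. Limma drew the variance of each gene toward that of genes at a like level. The SD printed after ± is the gene's own and is not the spread behind its p. The SD and the standard error in limma were 1.39 and 0.545 for Bop1, and 0.26 and 0.281 for Ttf1. For a gene that varies much between lines, p can thus be smaller than its own spread would give. The lowest adjusted p of the members in limma (0.034811) was shared by 16 of them. Their unadjusted p ran from 0.0016 (Bysl) to 0.0043 (Wdr3). Such ties come from the adjustment and do not show equal strength. The trend was a loess fit (span 0.3) of the ratio on mean log2 value in each line. Alternatives were median-of-ratios and quantile scaling, trend removal, pseudocounts of 0.1 and 5, other filters, no block, no intensity trend, and leaving out each line. The members and lists were chosen with earlier results of these data known. All members were named; of the other genes, the 2 lowest and 1 highest of each list were named, and promoter windows were shown for members with CACGTG. Promoter windows and sequences are those of RefSeq. In 28 of the 31 windows of members the last 30 bases lay in a GENCODE vM21 transcript of the gene on the same strand; the 3 others include those of Nop2 and Imp4.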

Additional observations from a re-analysis of the deposited data

Results flagged for a closer look

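With the expression trend removed, 11 genes had log2 ratios of opposite sign, each of at least 0.1, in different lines, and these differences were not tested. Myc was 0.49 in ZNF against -1.98 in BBC. Above the trend in ZNF and below it in BBC were also Rrp1b (0.39), Wdr12 (0.28), Imp4 (0.26), Nop58 (0.23), Pes1 (0.15), Ppan (0.13), Tsr1 (0.13) and Ncl (0.11). Dkc1 was 0.42 and Npm1 0.55 in BCRF8C, against -1.32 and -1.29 in BBC. As deposited, all 11 were lower with BGJ398 in all 3 lines.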

How the results depend on the processing

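Of the 33 members 31 were called lower, and the number was 0 under median-of-ratios scaling, 0 after quantile normalization, 0 on the scale without the trend and 0 without the line as replicate block; for the 117 other ribosome biogenesis genes (100 called) it was also 0 in each of these 4. The settings that kept the FPKM scaling and the block gave 30 to 33 members. Leaving out a line gave 0 (without BBC), 33 (without ZNF) and 10 (without BCRF8C) members, and 0, 104 and 25 of the other genes. The median ratio of the members moved from -1.91 to -0.96 (quantile) and -0.75 (trend removed), in BBC from -2.60 to -1.66 (median-of-ratios), -1.57 (quantile) and -1.34 (trend removed), and in BCRF8C from -2.36 to -1.13 (quantile) and -0.92 (trend removed). Myc, at -1.82 and not called, passed in limma at a mean of 5 FPKM or more (-1.82, adjusted p = 0.0330), among genes above 0 in all 6 libraries (-1.82, adjusted p = 0.0104) and without ZNF (-2.54, adjusted p = 0.0395), and without BBC it was at -1.01. Over all its alternatives the adjusted p of Myc lay between 0.0104 and 0.562. The cause of these changes was not tested. A fit with 2 lines has 1 residual degree of freedom, and with unknown depth no limit from counting could be given.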
